A study of Mus musculus with 2 samples.

Results

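Agt, Slc7a10, Cyp2e1, Irs1 and Pon1 are 5 genes of white fat metabolism and secretion that stood at higher signal in inguinal white fat of H4-TG transgenic mice than in that of wild-type (WT) mice. They were taken by exact gene symbol from the authors' deposited table, which lists 869 probes at least 1.5-fold higher in H4TG out of 35556 probes on the array, and each symbol occurred once there, so 5 probes are described. They were chosen by their measured fold ratios on these arrays, so the differences given below are descriptions with no test. The H4-TG group was 1 array on RNA pooled from 4 male mice about 8 weeks old, and the WT group was 1 array on RNA pooled from 4 male mice of the same age. Both groups were on normal chow at room temperature. The labels name neither the promoter and cell type that drive the transgene nor the strain, and do not spell out H4. With 1 pool per genotype the spread between animals was not measured and no p-value is given.

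The genes belong to different steps of adipocyte physiology. Agt encodes angiotensinogen, the secreted precursor from which renin and angiotensin-converting enzyme release the angiotensin peptides. The liver is its main source and fat cells secrete it too. Pon1 encodes paraoxonase 1, a calcium-dependent lactonase and esterase that travels in blood on high-density lipoprotein and is made mainly by the liver. Slc7a10 encodes Asc-1, an exchanger of small neutral amino acids such as serine, glycine and alanine, which is used as a surface marker of white adipocytes. Irs1 encodes insulin receptor substrate 1, the docking protein that the activated insulin receptor phosphorylates and that recruits phosphoinositide 3-kinase. Cyp2e1 encodes a cytochrome P450 of the endoplasmic reticulum that oxidises ethanol, acetone and fatty acids.

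The bases before the RefSeq start of each gene are shown to describe the promoters of the 5 genes, which are of different kinds. That all 5 genes were higher follows from their choice, and shared control was not tested. Each line gives 250 bases before the start on the gene's strand in GRCm38.p6, with matches to 5 searched motifs in capitals. The windows are chr8:124569707-124569956 on the minus strand for Agt, chr7:140763569-140763818 on the plus strand for Cyp2e1, chr6:5193947-5194196 on the minus strand for Pon1, chr7:35186135-35186384 on the plus strand for Slc7a10 and chr1:82291440-82291689 on the minus strand for Irs1.
Agt: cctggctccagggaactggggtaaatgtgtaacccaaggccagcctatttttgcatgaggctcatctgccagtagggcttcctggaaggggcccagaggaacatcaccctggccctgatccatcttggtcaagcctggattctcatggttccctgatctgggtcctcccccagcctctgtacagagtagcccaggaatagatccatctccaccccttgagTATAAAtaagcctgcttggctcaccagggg
Cyp2e1: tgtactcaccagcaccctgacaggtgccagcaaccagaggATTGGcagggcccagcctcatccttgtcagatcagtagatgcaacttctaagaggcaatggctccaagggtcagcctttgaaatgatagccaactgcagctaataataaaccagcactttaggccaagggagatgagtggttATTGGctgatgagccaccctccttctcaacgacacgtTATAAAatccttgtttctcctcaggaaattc
Pon1: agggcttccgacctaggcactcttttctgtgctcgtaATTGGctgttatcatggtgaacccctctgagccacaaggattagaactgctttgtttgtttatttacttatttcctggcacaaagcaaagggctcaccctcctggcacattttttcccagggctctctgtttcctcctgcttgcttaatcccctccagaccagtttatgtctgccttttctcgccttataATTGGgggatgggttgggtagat
Slc7a10: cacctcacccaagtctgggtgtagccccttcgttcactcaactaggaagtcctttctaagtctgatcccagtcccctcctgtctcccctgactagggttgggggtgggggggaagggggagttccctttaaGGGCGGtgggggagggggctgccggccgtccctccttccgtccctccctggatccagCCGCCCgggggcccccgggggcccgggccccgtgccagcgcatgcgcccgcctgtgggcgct
Irs1: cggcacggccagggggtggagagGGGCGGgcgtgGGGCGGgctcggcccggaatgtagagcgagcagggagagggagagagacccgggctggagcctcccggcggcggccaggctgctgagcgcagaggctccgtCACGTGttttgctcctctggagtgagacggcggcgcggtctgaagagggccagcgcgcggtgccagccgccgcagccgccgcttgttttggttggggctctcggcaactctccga

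The motifs, chosen with the sequences in view, were the TATA box TATAAA, the CCAAT box CCAAT, the GC box GGGCGG, the E-box CACGTG and the nuclear receptor half-site AGGTCA, each searched on both strands. None of the matches shown overlaps another. Agt has a TATAAA that begins 30 bases before the start, and Cyp2e1 has one that begins 31 bases before it. On either strand this motif occurs in 12.4% of the 32851 RefSeq promoter windows of the same length, and on the gene's strand beginning 40 to 20 bases before the start it occurs in 1.99%. Cyp2e1 and Pon1 each hold CCAAT 2 times on the opposite strand (read as ATTGG in the lines above), beginning 210 and 68 bases before the start in Cyp2e1 and 213 and 23 in Pon1. That motif is in 33.8% of windows. Slc7a10 and Irs1 hold no TATAAA and each hold the GC box 2 times, a motif found in 32.7% of windows. Irs1 also holds CACGTG, beginning 115 bases before the start. Of all windows, 6.02% hold that motif anywhere. None of the 5 windows holds AGGTCA, which 14% of all windows do. A match describes letters in a window and is not a measured binding site.

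The windows of Irs1 and Slc7a10 are rich in G and C, at 72.4% and 69.6%, against a median of 52.4% over all windows. Irs1 has 28 CpG dinucleotides, more than or equal to 93.2% of windows, and Slc7a10 has 14. The window of Agt is 55.6% G and C and holds 0 CpG. Those of Cyp2e1 and Pon1 are 48.8% and 47.6% G and C, with 2 and 3 CpG, below the median of 6. The plot of promoter composition sets these values among all windows.

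**Figure D1:**
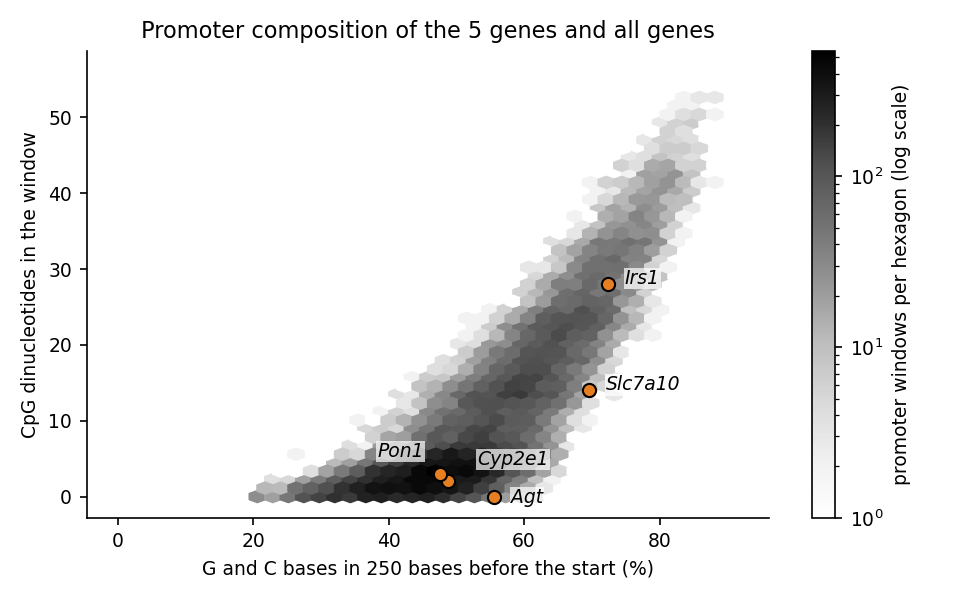
Each hexagon counts RefSeq promoter windows by the percentage of G and C (x axis) and the number of CpG dinucleotides (y axis) in 250 bases before the start, and the orange points are the 5 genes. Irs1 (28 CpG) and Slc7a10 (14 CpG) lie in the GC-rich arm, and Agt (0), Cyp2e1 (2) and Pon1 (3) lie at its foot.

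Values are log2 signals of 1 probe per gene, as deposited. Here a probe means a transcript cluster of the array, the unit of the deposited values. The median over all probes was 6.31 on the H4-TG array and 6.34 on the WT array, and the upper quartile was 7.82 on the H4-TG array and 7.92 on the WT array. The rank of a signal is given as the percentage of the array's probes at or below it. Probes differ in how well they bind and label, so a rank places a probe on its array and does not order the transcripts of different genes by abundance. Fold ratios are H4-TG over WT. In such tissue samples, a different number of cells of a type and a different amount of RNA per cell cannot be told apart.

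All 5 genes passed 1.5-fold, with the higher value in H4-TG. Of all probes, 4.27% did so (1518 of 35556), but the table that the genes come from starts at 1.5-fold, so their count follows from the choice. Only Pon1 passed 2-fold, which 0.892% of all probes did. The median log2 difference over the 5 genes was 0.70, against 0.72 over the 869 listed probes and -0.01 over all probes. Without Pon1 the other genes lay between 0.61 and 0.72.

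**Figure D2:**
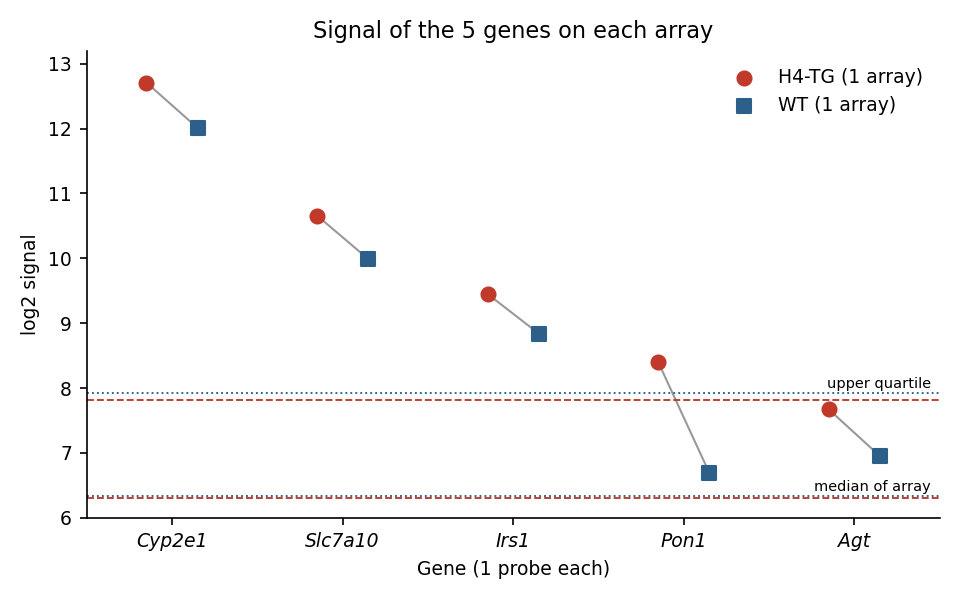
Log2 signal (y axis) of the 5 genes (x axis) on the H4-TG array (red circles) and the WT array (blue squares), 1 probe and 1 array each, with dashed (H4-TG) and dotted (WT) lines at the arrays' medians and upper quartiles. Every H4-TG point lies above its WT point, and Pon1, at 8.40 in H4-TG against 6.69 in WT, has the longest step and passes the upper quartile on the H4-TG array alone.

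Of the genes described above as encoding secreted proteins, Pon1 had a larger difference in RNA signal than Agt. The Pon1 probe, 10542983 (RefSeq NM_011134), had a log2 signal of 8.40 on the H4-TG array against 6.69 on the WT array, a 3.27-fold ratio. It stood at percentile 82.8 of the H4-TG array and 55.7 of the WT array, so it passed the upper quartile on the H4-TG array and not on the WT array. Its log2 difference of 1.71 ranked 80 from the top of all probes and 44 among those in the authors' table. The position in that table is chromosome 6 from 5118101 to 5143824, with no genome build stated. It spans the transcript cluster, so no single exon is given. No gene's position in that table adjoins its GRCm38.p6 promoter window given above, so these positions are not to be compared with the windows.

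The angiotensinogen probe, 10582658 (NM_007428), was the dimmest of the 5 on the H4-TG array. Agt had a log2 signal of 7.67 on the H4-TG array against 6.95 on the WT array, a 1.65-fold ratio. Both values lay above the array's median and below its upper quartile, at percentile 72.7 of the H4-TG array and 59.7 of the WT array. The log2 difference of 0.72 ranked 839 of all probes and 418 in the table, near the table's middle. The table places it on chromosome 8 from 127080487 to 127100793.

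The amino acid exchanger gave one of the bright probes of the array. Slc7a10 (probe 10552143, NM_017394) had a log2 signal of 10.66 on the H4-TG array against 9.99 on the WT array, a 1.60-fold ratio. It stood at percentile 97.2 of the H4-TG array and 94.8 of the WT array, and among the 869 listed probes it ranked 22 from the top on the H4-TG array and 16 on the WT array. The table places it on chromosome 7 from 35971437 to 35986130.

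Irs1, of the insulin receptor pathway, had the smallest difference of the 5. Its probe, 10356084 (NM_010570), had a log2 signal of 9.45 on the H4-TG array against 8.84 on the WT array, a 1.53-fold ratio. The signal stood at percentile 92.4 of the H4-TG array and 86.8 of the WT array. The log2 difference of 0.61 ranked 746 of the 869 listed probes, which ended at 0.58. The table places it on chromosome 1 from 82233185 to 82287991.

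Cyp2e1 was close to the top of both arrays. Its probe, 10558673 (NM_021282), had a log2 signal of 12.71 on the H4-TG array against 12.01 on the WT array, a 1.63-fold ratio. It stood at percentile 99.7 of the H4-TG array, where 93 probes were brighter, and 99.2 of the WT array, where 294 were. Among the listed probes it ranked 2 on the H4-TG array and 1 on the WT array. The table places it on chromosome 7 from 147949638 to 147960880. In the authors' deposited table the fold ratios were 3.27 for Pon1, 1.65 for Agt, 1.6 for Slc7a10, 1.53 for Irs1 and 1.63 for Cyp2e1, as computed here.

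The share of probes past 1.5-fold depended on how bright they were. When all probes were put into 5 groups of nearly equal size by mean signal, the share at least 1.5-fold higher in H4-TG was 6.96% in the dimmest group, then 6.18%, 4.36% and 2.33%, and 1.5% in the brightest. Slc7a10, Irs1 and Cyp2e1 were in the brightest group, which began at a mean signal of 8.22, and Agt and Pon1 were in the group next to it, at 2.33%. In both of these groups the median log2 difference was -0.10, so the 5 genes lay from 0.71 (Irs1) to 1.80 (Pon1) above the middle of probes of like brightness. Of the 7112 probes in the brightest group, 64 (0.900%) had a difference as high as that of Cyp2e1, 71 (0.998%) as high as that of Slc7a10 and 95 (1.34%) as high as that of Irs1. Of the 7111 in the next, 17 (0.239%) were as high as Pon1 and 95 (1.34%) as high as Agt. These shares describe the same 2 arrays from which the genes were chosen.

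**Figure D3:**
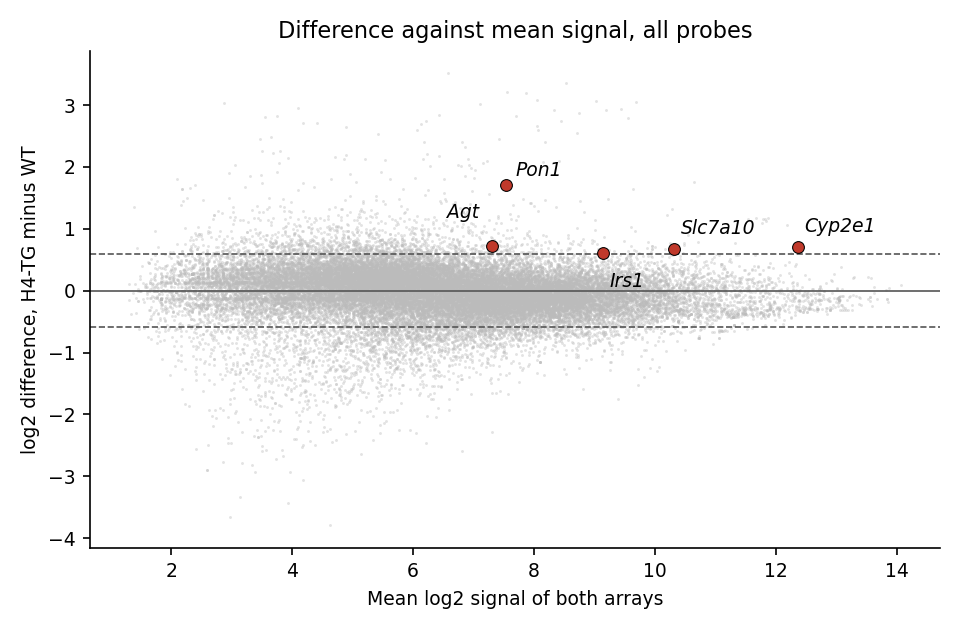
Log2 difference, H4-TG minus WT (y axis), against the mean log2 signal of both arrays (x axis) for all 35556 probes in grey, with the 5 genes in red and dashed lines at 1.5-fold in either direction. Pon1 stands apart at 1.71, while Irs1, Slc7a10, Cyp2e1 and Agt lie just above the upper line, on the brighter side of the array.

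**Figure D4:**
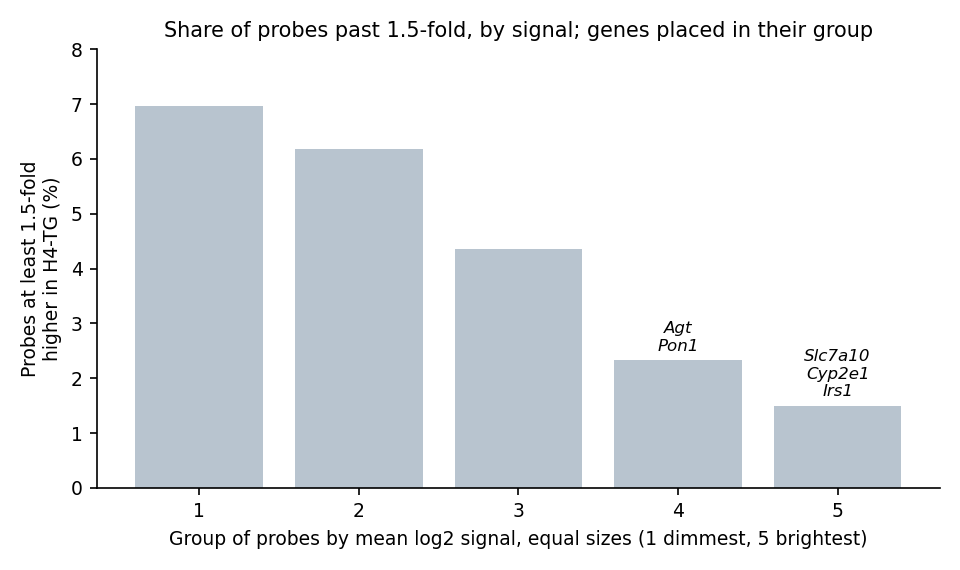
Bars give the percentage of probes at least 1.5-fold higher in H4-TG (y axis) in each of 5 groups of probes by mean log2 signal (x axis), with the 5 genes named over the group that holds them. The bars go down from 6.96% in the dimmest group to 1.5% in the brightest, where Slc7a10, Cyp2e1 and Irs1 lie.

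The pathway of each gene was described through lists of genes, of which only those in the authors' table, all higher in H4-TG, have a value here. That table holds 869 probes, while 1518 of all probes were at least 1.5-fold higher. A gene that is not in the table may therefore still have passed 1.5-fold. List genes were looked up only among the 822 rows of the table with 1 symbol. The 47 rows with several symbols were not searched. In the lists below, a gene said to be in the table, or not in it, refers to those 822 rows. Over all features, 2.44% of probes (869 of 35556) were in that table. This share counts probes, while the lists count genes. It also counts 6622 probes whose identifiers lie below all those in the table (the lowest identifiers), so it is only a rough guide. The lists were chosen with earlier results of these data known, so their shares are descriptions. The 5 genes were chosen from the table, so each is left out of the count of its list. Each median log2 difference below includes the chosen gene and covers listed genes only. The table starts at 1.5-fold, so a higher median follows from the choice and does not describe the whole list. Of 16 renin-angiotensin genes other than Agt, 2 (12.5%) were listed, Enpep and Agtr1b, and with Agt the median log2 difference was 0.80 (0.72 over all 869 listed probes). Enpep, the aminopeptidase that trims angiotensin II, had a log2 signal of 9.04 on the H4-TG array against 8.24 on the WT array (1.74-fold). Agtr1b, a type 1 angiotensin receptor of mice, had 5.77 in H4-TG against 4.92 in WT (1.80-fold). Agtr1b was below the median of both arrays, where signals past 1.5-fold were more frequent. Renin (Ren1) and angiotensin-converting enzyme (Ace) were not in the table and are not analysed here.

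Of 22 paraoxonase and lipoprotein genes other than Pon1, 3 (13.6%, against 2.44% of all probes) were listed. With Pon1 the median log2 difference of the listed genes was 0.81. Apoc1, an apolipoprotein of triglyceride-rich and high-density particles, had a log2 signal of 9.13 on the H4-TG array against 8.39 on the WT array (1.67-fold), and Apod, a lipocalin that binds small lipids, had 7.91 in H4-TG against 7.19 in WT (1.65-fold). Saa1, an acute-phase apolipoprotein, was dim at 3.23 in H4-TG against 2.35 in WT. Pon1 was the only listed gene of this list past 2-fold. The paralogues Pon2 and Pon3 were not in the table.

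Of 29 amino acid transporters other than Slc7a10, 4 (13.8%, against 2.44% of all probes) were listed. With Slc7a10 the median log2 difference of the listed genes was 0.67. The glutamate transporter Slc1a3 had a log2 signal of 10.01 on the H4-TG array against 9.37 on the WT array (1.55-fold). Slc43a1, a carrier of large neutral amino acids, had 8.90 in H4-TG against 8.21 in WT (1.61-fold). The sodium-coupled neutral amino acid transporters Slc38a4 (6.56 in H4-TG against 5.72 in WT, 1.80-fold) and Slc38a3 (6.48 in H4-TG against 5.90 in WT, 1.5-fold) were dimmer. The table held none of the other Slc7 genes of this list and did not hold Slc3a2, the heavy chain that Asc-1 pairs with.

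Of 39 insulin signalling genes other than Irs1, 1 (2.56%) was listed, a share near the 2.44% of all probes. This was Irs3, another insulin receptor substrate, and the median log2 difference of Irs1 and Irs3 was 0.61. Irs3, which rodent adipocytes express, had a log2 signal of 8.34 on the H4-TG array against 7.72 on the WT array, a 1.54-fold ratio beside 1.53-fold for Irs1. The insulin receptor (Insr), Irs2, Akt2 and the glucose transporter Slc2a4 were not in the table.

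Of 33 genes of microsomal oxidation, epoxide hydrolysis and conjugation other than Cyp2e1, 4 (12.1%, against 2.44% of all probes) were listed. With Cyp2e1 the median log2 difference of the listed genes was 0.71. Not all enzymes of this list are microsomal. Ephx2, the soluble epoxide hydrolase, had a log2 signal of 10.36 on the H4-TG array against 9.65 on the WT array (1.64-fold). Cyp2f2, another P450 monooxygenase, had 9.97 in H4-TG against 9.24 in WT (1.65-fold). Gsta4, a glutathione transferase for lipid aldehydes, had 8.84 in H4-TG against 8.24 in WT (1.51-fold). Cyp4a14, a fatty acid hydroxylase, was dim at 4.96 in H4-TG against 4.22 in WT. The reductase that supplies P450 enzymes with electrons, Por, was not in the table.

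The label of the genes as white fat genes could be checked only in part. The list of white adipocyte genes holds Slc7a10, Irs1 and Agt, and 0 of its 26 other genes were in the table. The defining markers Adipoq, Lep, Plin1 and Pparg were not, and are not analysed here. Among 34 genes of secreted fat proteins other than Agt, 1 (2.94%, against 2.44% of all probes) was listed, the secreted glycoprotein Fstl1, which stood at 9.15 on the H4-TG array against 8.52 on the WT array.

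Markers of other cells have a value here only where they are in the authors' table, which lists only higher probes. Of 25 skeletal muscle markers 24 (96%) were in the table (all but Tnnt1), against 2.44% of all probes, with a median log2 signal of 9.62 on the H4-TG array against 7.03 on the WT array. Their signals ran from 6.29 to 11.52 on the H4-TG array and from 5.0 to 9.76 on the WT array, and the log2 of their summed signals was 14.50 in H4-TG against 12.09 in WT. Of 25 hepatocyte markers, which bear on Agt, Pon1 and Cyp2e1 as genes of the liver, 2 (8%) were listed, Cyp2f2 and Fgg. Fgg, at 4.38 in H4-TG against 3.36 in WT, was below the median of both arrays. Cyp2f2, which is also counted in the list of Cyp2e1, had 9.97 in H4-TG against 9.24 in WT. The log2 of the summed signals of these 2 genes was 10 in H4-TG against 9.27 in WT, nearly all of it from Cyp2f2. The other hepatocyte markers have no value here. Alb, Ttr and Apoa1 were not in the table. Of 16 brown and beige adipocyte markers 4 (25%) were listed, at 8.04 to 11.10 on the H4-TG array and 6.97 to 10.31 on the WT array, with Ucp1 2.60-fold higher. For 16 stromal and mesothelial markers the number was 5 (31.2%), at 5.34 to 9.99 in H4-TG against 4.67 to 9.33 in WT, and for 11 macrophage markers it was 3 (27.3%), at 7.14 to 10.14 in H4-TG against 6.35 to 9.19 in WT. None of the 10 endothelial and 11 mammary and skin epithelium markers was listed. The part of these cells in the differences of the 5 genes was not tested.

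The named genes whose signals lay nearest to each gene's were found by the Euclidean distance between the pairs of log2 signals, over 2 arrays. Only the 800 genes named from the authors' table, all at least 1.5-fold higher in H4-TG, were candidates. Other probes of the array may lie nearer, and that all neighbours were higher follows from the table. Nearest to Cyp2e1 was Acsl1, the fatty acyl-CoA synthetase, with 12.55 on the H4-TG array against 11.95 on the WT array, at a distance of 0.164. The next, Prkar2b and Cox8b, were 1.92 and 2.34 away, so few named probes were as bright. Around Slc7a10 stood the carboxylesterase Ces1f (10.64 in H4-TG against 9.91 in WT), Fam13a (10.59 in H4-TG against 9.91 in WT) and the fatty acid transporter Slc27a1 (10.77 in H4-TG against 10.15 in WT). Around Irs1 stood Reep6 (9.43 in H4-TG against 8.80 in WT), Marchf5 (9.46 in H4-TG against 8.79 in WT), whose symbol the table holds as a date and which was named by its RefSeq accession, and Serpinf1 (9.37 in H4-TG against 8.77 in WT). Agt lay near Mir615 (7.63 in H4-TG against 6.95 in WT), Adssl1 (7.74 in H4-TG against 6.92 in WT) and Hspa12b (7.72 in H4-TG against 7.06 in WT). Pon1 was nearest to Ucp1, which uncouples respiration in brown and beige adipocytes (8.35 in H4-TG against 6.97 in WT, distance 0.281), and next to the secreted Wnt modulator Sfrp2 (8.20 in H4-TG against 7.04 in WT) and Rtn2 (8.00 in H4-TG against 6.80 in WT). With 2 arrays, nearness says only that the probes had like signals.

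The size of the differences was compared under 4 scalings of the arrays. Pon1 lay between 1.71 and 1.80 on the log2 scale, Agt between 0.72 and 0.81, Slc7a10 between 0.67 and 0.77, Cyp2e1 between 0.70 and 0.83 and Irs1 between 0.61 and 0.70. Each of the 5 differences was smallest on the deposited scale.

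**Figure D5:**
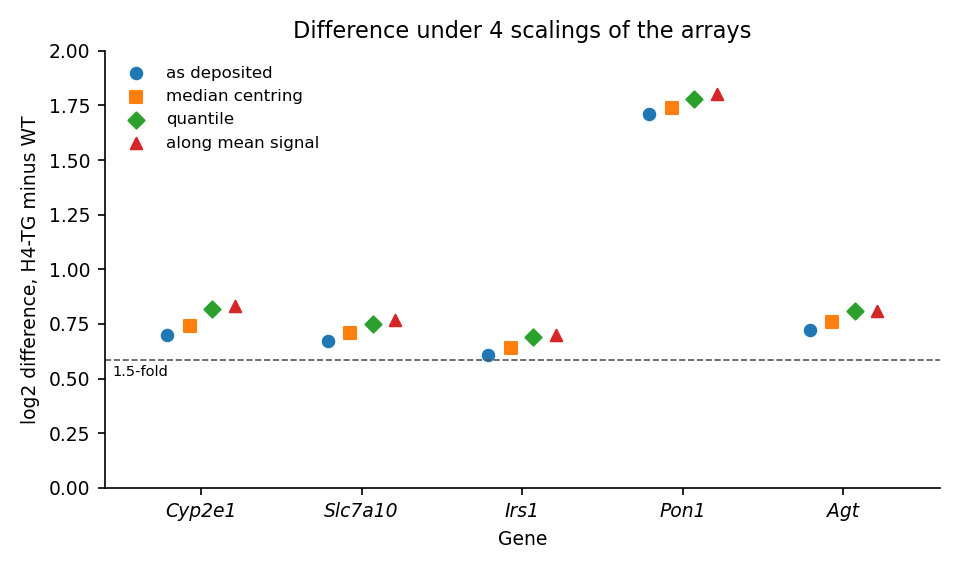
Log2 difference, H4-TG minus WT (y axis), of each gene (x axis) on the deposited scale and after median centring, quantile normalization and centring along mean signal, with a dashed line at 1.5-fold. All points lie above the line, with Pon1 between 1.71 and 1.80 and the other genes between 0.61 and 0.83.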

How the data were processed

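Total RNA of inguinal white fat was extracted with Trizol, pooled from 4 mice per genotype and labelled with biotin for mouse gene array 1.0, per the labels' protocols. The authors deposited log2 signals for 35556 probes, and the submitters' processing notes name MAS5 without its settings or any scaling between arrays. Their analysed table holds 869 probes with rounded log2 signals and the linear ratio H4TG / CON, per the file headers. Its 869 H4TG and 869 CON signals all lay within 0.005 of the H4-TG and WT columns.

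The 5 genes were taken by exact symbol and joined to the value table by probe. Differences are H4-TG minus WT, with no filter and no test. Of the table's rows 822 had 1 symbol; a RefSeq accession named 746, a current symbol 46 and a synonym 10, while 20 kept the table's symbol, giving 800 genes. Rows with several symbols (47) were not named. The brightest probe stood for a gene. All 5 genes matched RefSeq (GRCm38.p6) for promoters.

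Named genes were the 5 genes, the 3 nearest to each, and up to 6 listed members by mean signal of each of 14 lists (301 genes; 1 further gene is not reported here); further genes are named as not in the table. The genes and lists were chosen with earlier results of these data known. The alternatives were the 3 other scalings (lowess span 0.3 for the last), the authors' table, the mean over probes, a 2-fold threshold, a signal minimum, and leaving out the lowest identifiers. The scalings were tested on simulated data. The number of arrays limits the precision. Python 3.11.15, numpy 2.4.6, pandas 2.3.3, scipy 1.17.1, statsmodels 0.14.6 and matplotlib 3.10.9 were used.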

Additional observations from a re-analysis of the deposited data

How the results depend on the processing

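All 5 genes stayed above 1.5-fold under median centring, quantile normalization and centring along mean signal, and had the same differences in the authors' table. The mean over probes was the same by construction, since each gene has 1 probe in that table of higher probes. Whether the array holds other probes of these genes was not known. Differences that moved by over 0.1 on the log2 scale were those of Cyp2e1 after quantile normalization (0.82) and of Cyp2e1 (0.83) and Slc7a10 (0.77) after centring along mean signal. At 2-fold only 1 of the 5 genes passed, since Agt (0.72), Slc7a10 (0.67), Cyp2e1 (0.70) and Irs1 (0.61) are under it. Over all probes, 1518 were at least 1.5-fold higher and 2690 lower; these were 317 and 844 at 2-fold and 410 and 1117 above the median signal. Without the lowest identifiers (6622 probes) 1066 were higher and 1089 lower, so lower probes no longer clearly outnumbered higher ones. The shares of all probes, the ranks on each array and the groups by brightness given above include these 6622 probes. Counted among the authors' table, the percentile of the H4-TG signal was 80.4 for Agt, 97.6 for Slc7a10, 99.9 for Cyp2e1, 93.4 for Irs1 and 87.8 for Pon1, and that of the WT signal was 83.5, 98.3, 100, 95.4 and 81.7 in the same order, so that only Pon1 stood higher on the H4-TG array; without the lowest identifiers it was 71.6 for Agt and 82.1 for Pon1. Scaling by the median or quantiles keeps ranks by construction. Of 34 other named genes, Krt19 (0.57) and Slc38a3 (0.56, from 0.58 as deposited) were under 1.5-fold after centring along mean signal. The cause of these moves was not tested. All genes come from a table of higher probes, so the lack of reversals says nothing about stability. No paired analysis was possible because there was 1 array a genotype, which also left none to omit.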
